A study of Mus musculus with 16 samples.

Results

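The genes described here were 10 of the 48432 genes in the authors' table, chosen by symbol as members of the sphingomyelin phosphodiesterase family or as sphingomyelin or ceramide synthases. They were *Smpdl3a*, *Smpdl3b*, *Smpd1*, *Smpd2* and *Smpd4* of the sphingomyelin phosphodiesterases, the sphingomyelin synthase genes *Sgms1* and *Sgms2*, and the ceramide synthase genes *Cers2*, *Cers5* and *Cers6*. Each symbol was found on 1 gene with its own mean in each group. RNA-seq was done on thioglycolate-elicited mouse peritoneal macrophages (PM), taken 5 days after the injection and loaded with oxidized LDL (oxLDL, 50 μg/ml) for 48 h, so that every group was a foam cell culture and none was left unloaded. There were 16 samples in 4 groups of 4: LDAH-Tg PM (genotype label LDAH overexpression), their controls (labelled LDAH ApoE control, here Tg control), LDAH-KO PM (labelled LDAH KO) and their own littermate controls (labelled LDAH WT, here KO WT). All carry the strain label C57BL/6J. The *Ldah* transgene is driven by the promoter and an intronic enhancer of *Csf1r*, which is active in myeloid cells, whereas in the knockout a cassette replaces the first coding exons of *Ldah* in all cells. The study bred both lines to *Apoe*-deficient mice. Which of these mice gave the PM for sequencing was not given in the sources used here, nor were their age and sex, and *Apoe* RNA had between 7947 and 10404 TPM in the 4 groups.

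Sphingomyelin is a main lipid of the plasma membrane, where it binds cholesterol, and it enters macrophages with oxLDL. Sphingomyelinases cut it to ceramide and phosphocholine, ceramide synthases make ceramides by joining a fatty acid to a sphingoid base, and sphingomyelin synthases move phosphocholine onto ceramide. Ceramide therefore stands between both directions of the pathway, and in macrophages it is known for its part in stress signaling and cell death. *Smpdl3a* encodes a secreted enzyme that is related to acid sphingomyelinase in sequence but is known to cut nucleotides rather than sphingomyelin, and it is a known target of the liver X receptors (LXRs) in macrophages. LDAH is a lipid droplet protein with a lipase fold, and the study asked what its gain and its loss do to foam cells.

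The deposited values were the authors' mean TPM (transcripts of a gene per 1000000 transcripts) of each group, which are scaled for transcript length, so levels of different genes can be set side by side. The table used holds group means alone. Differences are therefore given without SD, p-value or check over replicates, the depth is unknown, and neighbours in any order of levels cannot be told apart from their spread. Each genotype was compared with its own controls by the log2 ratio of the means after adding 0.5 TPM to each, over genes with a mean of at least 1 TPM and no group at 0. A factor of 1.5 marks a size and not a test. *Ldah* itself had 124 TPM in LDAH-Tg PM, against 28.5 TPM in Tg control PM, and 27.9 TPM in LDAH-KO PM, against 44.5 TPM in KO WT PM. A mean over the whole gene does not single out the deleted exons, so the LDAH-KO value does not check the knockout. Both control groups differed from each other by 1.5-fold or more in 38.6% of 11404 genes.

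The closest relatives among these genes share only short stretches of coding sequence, which bears on whether reads of one could be counted for the other. The longest run of bases shared by the coding sequences of *Cers5* and *Cers6* was 18 bases, that of *Sgms1* and *Sgms2* 16 bases and that of *Smpdl3a* and *Smpdl3b* 12 bases. UTRs were not compared. The runs are shown in capitals with the flanking 15 bases on each side from the GENCODE M21 transcripts. The coordinates are those of the capitals in GRCm38.
*Cers5* (chr15:99738761-99738778, minus strand): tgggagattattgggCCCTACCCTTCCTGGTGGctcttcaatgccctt
*Cers6* (chr2:69105046-69105063, plus strand): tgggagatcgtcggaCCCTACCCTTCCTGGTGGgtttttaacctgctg
*Sgms1* (chr19:32125244-32125259, minus strand): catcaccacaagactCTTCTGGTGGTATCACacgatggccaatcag
*Sgms2* (chr3:131325077-131325092, minus strand): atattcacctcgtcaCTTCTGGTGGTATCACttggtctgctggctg
*Smpdl3a* (chr10:57801027-57801038, plus strand): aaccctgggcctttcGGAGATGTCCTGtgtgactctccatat
*Smpdl3b* (chr4:132739656-132739667, minus strand): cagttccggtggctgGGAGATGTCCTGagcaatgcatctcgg
All 6 runs lay within 1 exon each.

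*Smpdl3a* (ENSMUSG00000019872.13, chr10:57794335-57811830, plus strand, GRCm38) was the sphingomyelinase family gene with the highest level in every group. Its mean was 126 TPM in LDAH-Tg PM, against 188 TPM in Tg control PM, a difference of -61.7 TPM. The log2 ratio was -0.57, just short of the factor of 1.5. Of the 11395 genes compared, 0.72% had a lower ratio. In LDAH-KO PM its mean was 447 TPM, against 449 TPM in KO WT PM, a log2 ratio near 0 (-0.01), and 97.4% of 11289 genes lay farther from 0. *Smpdl3a* thus stood low in LDAH-Tg PM and level in LDAH-KO PM, each against its own controls. No annotated gene overlaps it.

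The related gene *Smpdl3b* (ENSMUSG00000028885.8, chr4:132732966-132757252, minus strand), whose product is anchored to the membrane by a lipid, had the lowest mean of the 10 genes in all 4 groups. It had 0.89 TPM in LDAH-Tg PM, against 0.94 TPM in Tg control PM, under the minimum of 1 TPM, so it entered no count there and its log2 ratio of -0.05 is given for completeness. Its mean was 1.74 TPM in LDAH-KO PM and 2.06 TPM in KO WT PM, a log2 ratio of -0.20. Its level was thus a small part of that of *Smpdl3a* in each group.

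**Figure D1:**
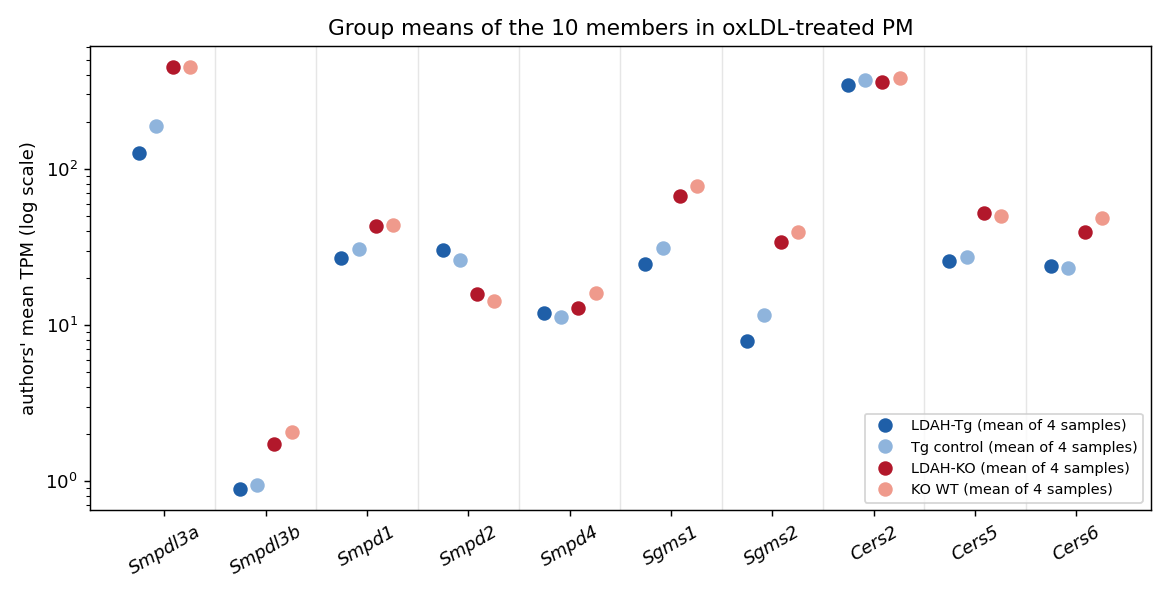
Authors' mean TPM (log scale) of the 10 genes in LDAH-Tg, Tg control, LDAH-KO and KO WT PM, 1 point per group mean of 4 samples with no error available. *Cers2* stayed between 344 and 384 TPM in the 4 groups, whereas *Smpdl3a* lay at 126 and 188 TPM in LDAH-Tg and Tg control PM and at 447 and 449 TPM in LDAH-KO and KO WT PM.

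*Smpd1* (ENSMUSG00000037049.9, chr7:105554360-105558389, plus strand) encodes acid sphingomyelinase, the lysosomal and secreted enzyme whose loss causes Niemann-Pick disease types A and B. Its mean was 26.9 TPM in LDAH-Tg PM, against 30.8 TPM in Tg control PM, a log2 ratio of -0.19. It was 42.8 TPM in LDAH-KO PM and 43.4 TPM in KO WT PM, a log2 ratio of -0.02. Of all genes, 33.9% lay farther from 0 in the LDAH-Tg comparison and 91.3% in the LDAH-KO comparison.

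*Smpd2* (ENSMUSG00000019822.12, chr10:41485642-41490369, minus strand) encodes a neutral sphingomyelinase of the endoplasmic reticulum. It was the single gene of the 10 with a higher mean in both genotypes than in their controls. LDAH-Tg PM had 30.3 TPM and Tg control PM 26.1 TPM, a log2 ratio of 0.21. The means in LDAH-KO PM and KO WT PM were 15.8 and 14.1 TPM, a log2 ratio of 0.15. *Smpd2* shares 905 exon bases, or 20.3% of its exons, with *Mical1* on the opposite strand. *Mical1* had 114 TPM in LDAH-Tg PM, against 85.3 TPM in Tg control PM (log2 ratio 0.41), and 37.7 TPM in LDAH-KO PM, against 40.9 TPM in KO WT PM (log2 ratio -0.12). *Mical1* thus moved with *Smpd2* in the LDAH-Tg comparison and not in the LDAH-KO comparison. The library kit marks strand, but whether strand was used in the counting was not given in the sources used here, and the part of *Mical1* reads in the *Smpd2* values was not tested.

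*Smpd4* (ENSMUSG00000005899.12, chr16:17619354-17644828, plus strand) encodes a neutral sphingomyelinase of the nuclear envelope and endoplasmic reticulum. It had 12.0 TPM in LDAH-Tg PM, against 11.3 TPM in Tg control PM, a log2 ratio of 0.08. It had 12.8 TPM in LDAH-KO PM, against 16.0 TPM in KO WT PM, and its log2 ratio of -0.31 was the lowest of the 10 genes in that comparison. Of all genes compared there, 10.4% had a lower ratio.

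Among the sphingomyelin synthases, *Sgms1* (ENSMUSG00000040451.17, chr19:32122727-32389714, minus strand) encodes the Golgi enzyme that makes most sphingomyelin, and *Sgms2* (ENSMUSG00000050931.7, chr3:131318985-131491411, minus strand) encodes an enzyme found at the plasma membrane as well. Both had lower means in both genotypes than in their controls. *Sgms1* had 24.6 TPM in LDAH-Tg PM, against 30.9 TPM in Tg control PM, a log2 ratio of -0.32. It had 66.7 TPM in LDAH-KO PM and 78.2 TPM in KO WT PM, a log2 ratio of -0.23. *Sgms2* had 7.86 TPM in LDAH-Tg PM, against 11.6 TPM in Tg control PM, a log2 ratio of -0.53, and 0.965% of genes had a lower one. It had 34.0 TPM in LDAH-KO PM and 39.7 TPM in KO WT PM, a log2 ratio of -0.22. *Sgms1* exceeded *Sgms2* in every group, by 3.13-fold in LDAH-Tg PM, 2.67-fold in Tg control PM, 1.96-fold in LDAH-KO PM and 1.97-fold in KO WT PM. The span of *Sgms1* overlaps 2 annotated genes, 1 of them on the same strand. That of *Sgms2* overlaps 1, on the opposite strand. The part of their reads in these values was not tested.

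The ceramide synthases differ in the acyl chains they use. *Cers2* (ENSMUSG00000015714.11, chr3:95314791-95323599, plus strand) makes ceramides with very long chains, and *Cers5* (ENSMUSG00000023021.15, chr15:99734881-99772885, minus strand) and *Cers6* (ENSMUSG00000027035.10, chr2:68861441-69114282, plus strand) make those with palmitoyl chains. *Cers2* had 344 TPM in LDAH-Tg PM, against 371 TPM in Tg control PM, a log2 ratio of -0.11, and 361 TPM in LDAH-KO PM against 384 TPM in KO WT PM, a log2 ratio of -0.09. Its highest group mean was 1.12 times its lowest, the narrowest range of the 10 genes. *Cers5* had 25.8 TPM in LDAH-Tg PM, against 27.2 TPM in Tg control PM (log2 ratio -0.08), and 52.2 TPM in LDAH-KO PM and 50.2 TPM in KO WT PM (log2 ratio 0.06). *Cers6* had 23.9 TPM in LDAH-Tg PM, against 23.3 TPM in Tg control PM, a log2 ratio of 0.04. Its mean was 39.6 TPM in LDAH-KO PM, against 48.1 TPM in KO WT PM, a log2 ratio of -0.28. The genes for palmitoyl ceramides thus differed from each other in LDAH-KO PM, with *Cers5* slightly above and *Cers6* below the controls. *Cers5* was 1.32 times *Cers6* in LDAH-KO PM and 1.04 times in KO WT PM. *Cers2* shares 75 exon bases with *Setdb1* and 144 with the antisense gene *6330562C20Rik*, which had 8.74 TPM in LDAH-Tg PM, 7.92 TPM in Tg control PM, 8.13 TPM in LDAH-KO PM and 12.0 TPM in KO WT PM. The span of *Cers6* overlaps 6 annotated genes, all 6 on the same strand and 0 of them protein-coding. That of *Cers5* overlaps 1, on the opposite strand. Exon bases shared with these were not counted, and the part of their reads in the *Cers6* and *Cers5* values was not tested.

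Counted over the genes that passed the filter, 0 of 9 differed by a factor of 1.5 between LDAH-Tg PM and their controls, where 1.95% of 11395 genes did. By any size, 6 of the 9 were lower in LDAH-Tg PM and 3 were higher, with a median log2 ratio of -0.11. Of all genes compared, 49.5% were lower and 50.5% higher, and the median was 0.002. Between LDAH-KO PM and their controls 0 of 10 genes differed by that factor, where 2.22% of 11289 genes did. By any size, 8 of the 10 were lower and 2 higher, and their median log2 ratio was -0.14. There 66.6% of all genes were lower, 33.4% higher and the median was -0.08, so the direction of most of the 10 was also that of most genes. At a factor of 1.2, *Smpdl3a*, *Sgms1* and *Sgms2* were lower in LDAH-Tg PM, 3 of 9 where 8.48% of all genes were. At the same factor *Smpd4* and *Cers6* were lower in LDAH-KO PM, 2 of 10 where 15.6% of all genes were. *Sgms1* and *Sgms2* were just short of that factor in LDAH-KO PM. Differences between the comparisons could not be tested. Of the 9 genes with a ratio in both comparisons, 5 were lower in both genotypes than in their controls, 1 was higher in both, 2 were higher in LDAH-Tg PM and lower in LDAH-KO PM, and 1 was the other way. Among the 10858 genes compared in both, these shares were 33.9%, 16.7%, 32.3% and 17.1% in the same order. The 5 lower in both included *Smpdl3a* (-0.01) and *Smpd1* (-0.02), which were close to 0 in LDAH-KO PM. With median-ratio scaling both were above 0 there (0.07 and 0.05), so the count of 5 depends on the scaling.

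**Figure D2:**
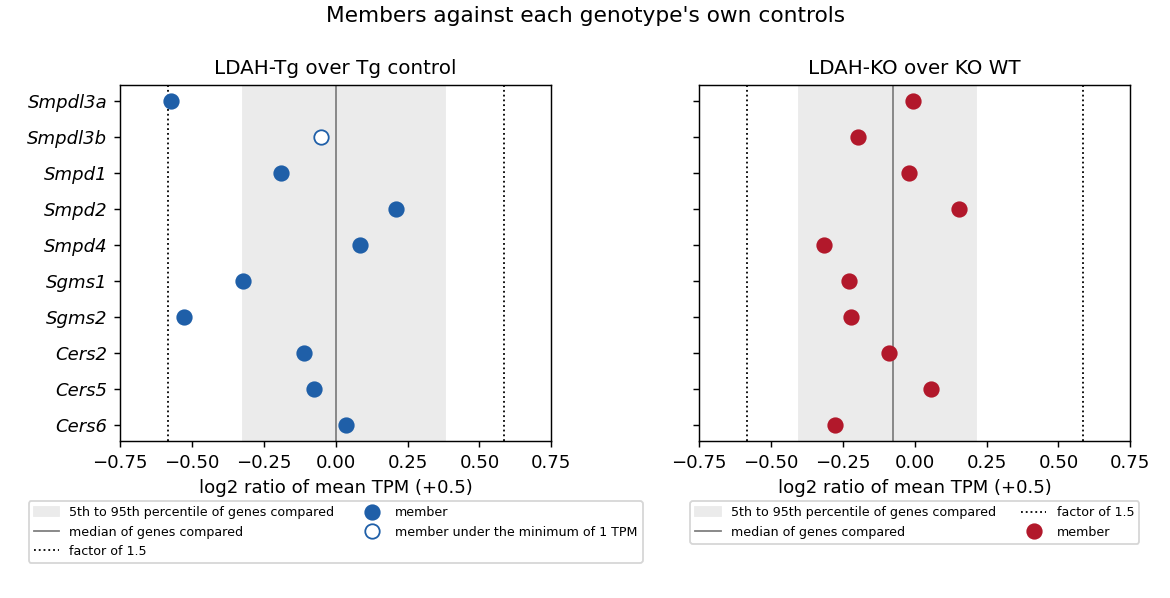
Log2 ratio of mean TPM (after adding 0.5) of each gene, LDAH-Tg over Tg control PM on the left and LDAH-KO over KO WT PM on the right, with the 5th to 95th percentile of all genes compared as a gray band, their median as a gray line and the factor of 1.5 as dotted lines. *Smpdl3a* (-0.57) and *Sgms2* (-0.53) lay below the band in LDAH-Tg PM, *Sgms1* (-0.32) lay at its edge, and all 10 genes lay within the band in LDAH-KO PM.

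Summed over each class, the sphingomyelinase family had 197 TPM in LDAH-Tg PM, against 257 TPM in Tg control PM, a ratio of 0.764, a gap about as wide as that of *Smpdl3a* alone. The sphingomyelin synthases had 32.5 TPM in LDAH-Tg PM, against 42.5 TPM in Tg control PM, a ratio of 0.765. The ceramide synthases had 393 TPM in LDAH-Tg PM, against 422 TPM in Tg control PM, a ratio of 0.933. Without *Smpdl3a* the other 4 genes of the sphingomyelinase family summed to 70.1 TPM in LDAH-Tg PM, against 69.1 TPM in Tg control PM, a ratio of 1.01. In LDAH-KO PM the sums were 520.4 TPM against 525 TPM in KO WT PM for the sphingomyelinase family (ratio 0.991), 101 TPM in LDAH-KO PM against 118 TPM in KO WT PM for the sphingomyelin synthases (ratio 0.854) and 453 TPM in LDAH-KO PM against 482 TPM in KO WT PM for the ceramide synthases (ratio 0.939).

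The makeup of each class differed more between the sets of mice than between genotypes. *Smpdl3a* made up 64.3% of the sphingomyelinase family sum in LDAH-Tg PM, 73.1% in Tg control PM, 86.0% in LDAH-KO PM and 85.6% in KO WT PM. *Smpd2* made up 15.4% in LDAH-Tg PM, 10.2% in Tg control PM, 3.03% in LDAH-KO PM and 2.69% in KO WT PM. *Smpd1* was 0.889 times *Smpd2* in LDAH-Tg PM and 1.18 times in Tg control PM, against 2.71 times in LDAH-KO PM and 3.07 times in KO WT PM. *Smpd1* was thus below *Smpd2* in LDAH-Tg PM alone of the 4 groups, with the limit on *Smpd2* values from *Mical1* given above. *Cers2* made up 87.4% of the ceramide synthase sum in LDAH-Tg PM, 88.0% in Tg control PM, 79.7% in LDAH-KO PM and 79.6% in KO WT PM.

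**Figure D3:**
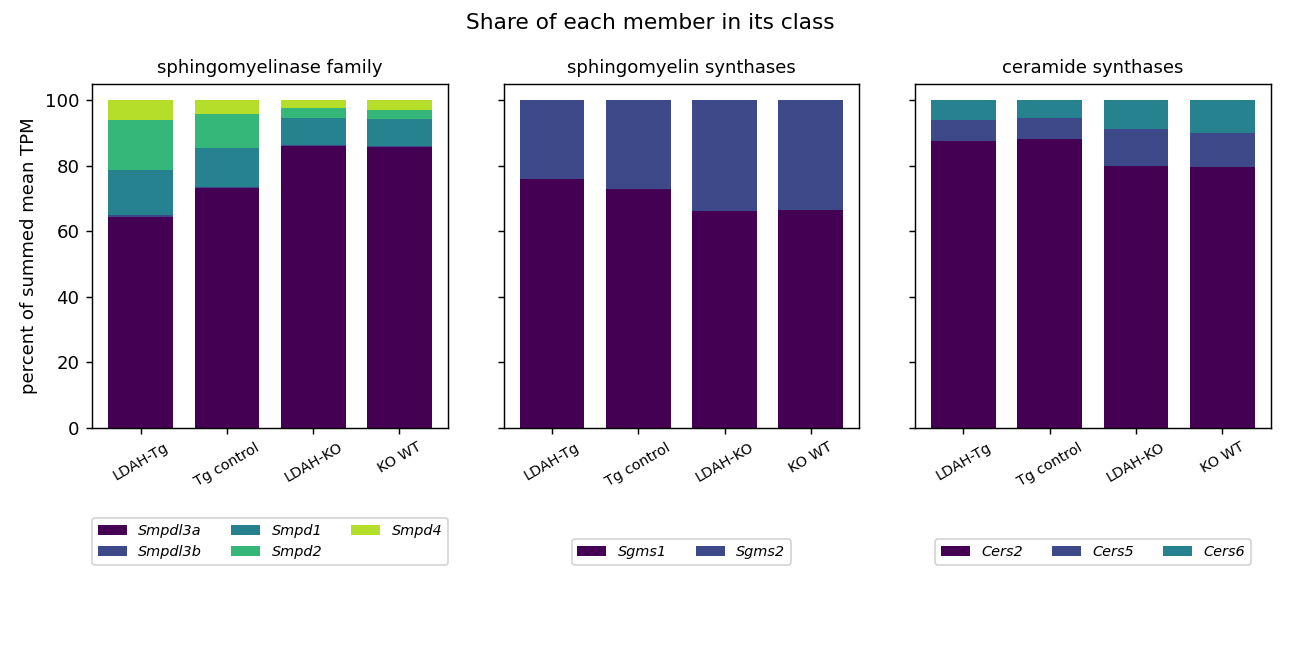
Share of each gene in the summed mean TPM of its class (percent) in LDAH-Tg, Tg control, LDAH-KO and KO WT PM, 1 bar per group. The share of *Smpdl3a* was 64.3% in LDAH-Tg PM and 73.1% in Tg control PM, and that of *Sgms2* was 24.2% in LDAH-Tg PM and 27.2% in Tg control PM, with 33.7% in both LDAH-KO and KO WT PM.

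In level, *Cers2* was first and *Smpdl3a* second of the 10 in LDAH-Tg PM and Tg control PM. *Smpdl3a* was first and *Cers2* second in LDAH-KO PM and KO WT PM. *Smpdl3a* was 0.368 times *Cers2* in LDAH-Tg PM and 0.507 times in Tg control PM, against 1.24 times in LDAH-KO PM and 1.17 times in KO WT PM. Set against KO WT PM, Tg control PM had lower means for 9 of the 10 genes, where 60.7% of all genes were lower, and lower by a factor of 1.5 for 6 of them, where 26.5% of 11404 genes were lower by it. These were *Smpdl3a* (log2 ratio -1.25), *Smpdl3b* (-0.83, with a mean under 1 TPM in Tg control PM, so that it passed the filter through KO WT PM alone), *Sgms1* (-1.33), *Sgms2* (-1.74), *Cers5* (-0.87) and *Cers6* (-1.03). *Smpd2* was the 1 gene higher by it (log2 ratio 0.86), where 12.1% were, and *Mical1* was higher as well (1.05). *Smpd1* and *Smpd4* were both at -0.49 and *Cers2* at -0.05, and the median of all genes was -0.17. These control groups had separate sets of mice and different genotype labels, so the label and the set of mice cannot be told apart. Each comparison above shares a control group with this one.

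Because *Sgms2* had the widest range of the 10 (its highest group mean was 5.05 times its lowest) and *Smpd1* and *Smpd2* changed order, the 250 bases before the start of these genes are shown, from RefSeq on GRCm38.p6, for the outermost start of each. Of the 10 genes, 9 matched a promoter entry, with 18 entries in all, so the counts do not cover *Smpdl3a*. Capitals mark AGGTCA, the core site of LXRs and many other nuclear receptors, or CACGTG, the E-box core bound by MiT/TFE and other factors, on either strand.
*Smpd1* (chr7:105554110-105554359, plus strand): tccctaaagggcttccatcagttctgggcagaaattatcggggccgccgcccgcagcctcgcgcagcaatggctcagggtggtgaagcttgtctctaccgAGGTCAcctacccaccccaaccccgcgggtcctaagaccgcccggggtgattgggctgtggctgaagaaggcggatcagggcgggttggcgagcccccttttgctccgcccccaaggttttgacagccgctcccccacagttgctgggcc
*Smpd2* (chr10:41490341-41490590, minus strand): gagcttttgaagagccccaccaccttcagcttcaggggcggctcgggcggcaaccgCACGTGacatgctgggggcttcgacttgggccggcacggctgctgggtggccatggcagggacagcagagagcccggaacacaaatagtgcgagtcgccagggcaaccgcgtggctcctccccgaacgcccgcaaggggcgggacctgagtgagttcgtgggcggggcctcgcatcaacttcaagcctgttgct
*Sgms2* (chr3:131491444-131491693, minus strand): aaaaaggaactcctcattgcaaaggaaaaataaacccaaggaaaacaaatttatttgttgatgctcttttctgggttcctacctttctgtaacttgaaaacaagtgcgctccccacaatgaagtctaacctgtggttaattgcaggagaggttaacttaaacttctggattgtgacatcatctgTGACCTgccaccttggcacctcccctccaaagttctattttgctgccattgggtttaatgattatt
Counted from -1 at the base before the start, the AGGTCA of *Smpd1* began at -150, that of *Sgms2* at -66 (on the opposite strand) and the E-box of *Smpd2* at -194. In the whole windows, which run to 50 bases after the start, AGGTCA was found in at least 1 entry of *Cers2*, *Sgms1*, *Sgms2* and *Smpd1*, 6 of the 18 entries, against 16.3% of 32851 promoters. CACGTG was found in 5 of the 18 entries, those of *Cers2*, *Cers6*, *Sgms2*, *Smpd2* and *Smpdl3b*, against 7.15%. The longer form TCACGTGA, called the CLEAR core, was in 0 of the 18 entries and in 0.974% of all promoters. The DR4 element, AGGTCA repeated in the same direction with any 4 bases between, was in 0 of the 18 entries and in 0.0152% of all promoters. The 18 entries belong to 9 genes and were not checked for overlap, so 1 site may count in more than 1 entry of a gene. A match is a description of the letters in these windows only.

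The rest of the pathway was taken from 8 lists of 63 other sphingolipid genes. In the LDAH-Tg comparison 42 passed the filter, with a median log2 ratio of -0.09, and 30 were lower and 12 higher in LDAH-Tg PM. Over all genes in that comparison the median was 0.002, and 49.5% were lower. By a factor of 1.5, 1 of the 42 was lower and 0 higher, where 0.685% of all genes were lower and 1.26% higher. In the LDAH-KO comparison 43 passed, with a median of -0.06, 32 lower and 11 higher, and 0 by that factor in either direction. Over all genes there the median was -0.08, 66.6% were lower and 2.22% were past the factor, so the lists lay near the background. The 1 gene past the factor was *Vapb*, which anchors the ceramide transfer protein at the endoplasmic reticulum, with 44.2 TPM in LDAH-Tg PM, against 67.3 TPM in Tg control PM (log2 ratio -0.60).

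Upstream of the ceramide synthases, 8 of 11 genes of sphingoid base synthesis passed. Their median was -0.20 for LDAH-Tg PM (7 lower, 1 higher) and -0.01 for LDAH-KO PM (4 lower, 4 higher). Over all genes 49.5% were lower in LDAH-Tg PM and 66.6% in LDAH-KO PM. *Degs1*, the desaturase that turns dihydroceramide into ceramide, had 191 TPM in LDAH-Tg PM, against 264 TPM in Tg control PM (log2 ratio -0.46). *Ormdl1*, an inhibitor of serine palmitoyltransferase, was at -0.41 on the log2 scale in LDAH-Tg PM. *Sptlc2*, a subunit of that enzyme, was the 1 higher gene (0.10), with 307 TPM in LDAH-Tg PM, against 286 TPM in Tg control PM. In LDAH-KO PM the ratios farthest from 0 were those of *Kdsr*, the reductase after it (-0.28), and of the small subunit gene *Sptssa* (0.19).

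Downstream, all 3 ceramidase genes that passed were lower in LDAH-Tg PM, at a median of -0.49. Over all genes 49.5% were lower there, with a median of 0.002. *Asah1*, the acid ceramidase of the lysosome, had 224 TPM in LDAH-Tg PM, against 315 TPM in Tg control PM (log2 ratio -0.49). The neutral ceramidase *Asah2* had 2.05 TPM in LDAH-Tg PM, against 3.2 TPM in Tg control PM (-0.54), and the alkaline ceramidase *Acer3* had a log2 ratio of -0.15. In LDAH-KO PM these genes were at -0.01, -0.35 and -0.11. *Asah1* was thus placed like *Smpdl3a*, low in LDAH-Tg PM and level in LDAH-KO PM. Of the sphingosine 1-phosphate genes, 6 of 11 passed, 3 lower and 3 higher in LDAH-Tg PM, among them the receptors *S1pr1* (-0.42) and *S1pr2* (-0.36) and the kinase *Sphk1* (0.25). Of the glycosphingolipid degradation genes, 10 of 12 passed and 9 were lower in LDAH-Tg PM, with a median of -0.22. Of the synthesis genes that passed, 4 of 5 were higher there, with a median of 0.05. In LDAH-KO PM 7 of 10 degradation genes were lower (median -0.08) and 6 of 6 synthesis genes were lower (median -0.10). Over all genes in that comparison 66.6% were lower, with a median of -0.08. Of the enzymes of the members' own kinds outside the 10, *Samd8*, a ceramide phosphoethanolamine synthase, had 32.9 TPM in LDAH-Tg PM, against 37.9 TPM in Tg control PM (log2 ratio -0.20). The sphingomyelinase gene *Smpd5* was level in LDAH-Tg PM (log2 ratio -0.02) and higher in LDAH-KO PM (0.26), each against its own controls. Like *Smpd2*, it was higher in Tg control PM than in KO WT PM by a factor of 1.5 (log2 ratio 1.24). *Cers4* had 2.83 TPM in LDAH-KO PM and 1.89 TPM in KO WT PM (log2 ratio 0.48). *Smpd3* was under 1 TPM in every group, *Cers3* under 0.2 TPM, and *Cers1* and *Enpp7* were listed at 0 in all groups. *Psap*, whose saposins many of these hydrolases need, was also listed at 0 in all groups, as were *Ctsb* and *Ctsd*. *Ctsl* was listed at 0 in all groups but LDAH-Tg. No level is read from such a value.

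**Figure D4:**
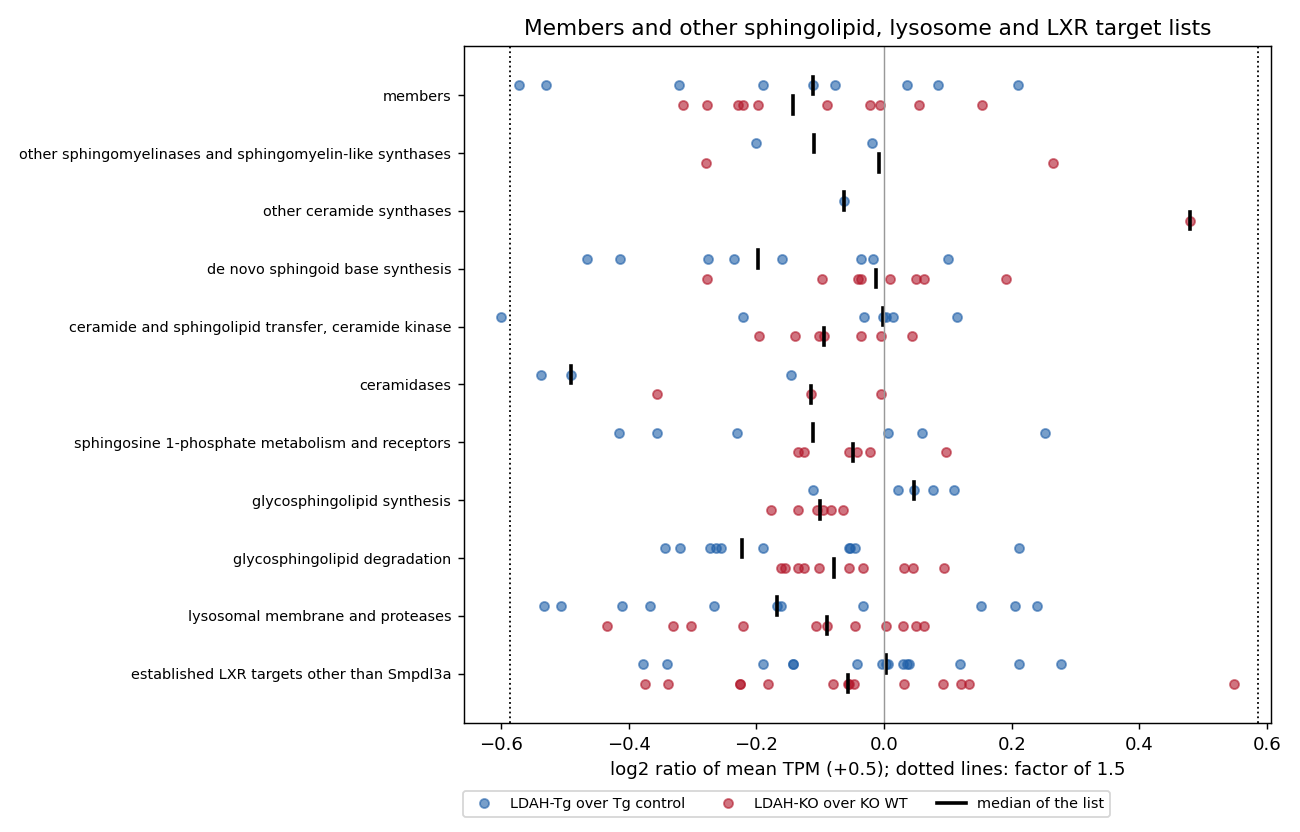
Log2 ratio of mean TPM (after adding 0.5) of the genes that passed the filter in the 10 members, 8 other sphingolipid lists, a lysosome list and a list of LXR targets, LDAH-Tg over Tg control in blue above LDAH-KO over KO WT in red, with the median of each list as a black bar. The ceramidase median was -0.49 in LDAH-Tg PM and -0.11 in LDAH-KO PM, and *Vapb* (-0.60) was the 1 point past the dotted lines at the factor of 1.5.

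Lists of lysosomal and LXR target genes were set beside *Smpdl3a* and *Smpd1*. Of 14 lysosomal genes, 11 passed, with a median of -0.17 for LDAH-Tg PM (8 lower, 3 higher). Over all genes in that comparison 49.5% were lower and the median was 0.002. The lowest of the 11 were the membrane protein gene *Lamp1* (1121 TPM in LDAH-Tg PM against 1622 TPM in Tg control PM, -0.53) and the acid lipase gene *Lipa* (709 TPM in LDAH-Tg PM against 1007 TPM in Tg control PM, -0.51). The 3 higher were *Mcoln1* (0.24), *Tfeb* (0.21) and *Tfe3* (0.15). In LDAH-KO PM the median of the 11 was -0.09 (7 lower, 4 higher), where 66.6% of all genes were lower and their median was -0.08. The ratios of the list farthest from 0 there were those of *Mcoln1* (-0.43), *Npc1* (-0.33) and *Tfe3* (-0.30). All 15 LXR targets other than *Smpdl3a* passed in the LDAH-Tg comparison, with a median of 0.004 (7 lower, 8 higher). Of these targets 0 were past a factor of 1.5, where 1.95% of all genes were. The ratio of *Smpdl3a* there (-0.57) was below that of each of the 15 targets, the lowest being *Cd5l* (-0.38) and *Scd1* (-0.34). *Abca1*, the cholesterol exporter, had 69.3 TPM in LDAH-Tg PM, against 76.5 TPM in Tg control PM (log2 ratio -0.14). *Abcg1* had log2 ratios of -0.19 in LDAH-Tg PM and -0.18 in LDAH-KO PM. By qPCR of oxLDL-treated PM, the study reported *Abca1* and *Abcg1* as higher in LDAH-Tg PM and lower in LDAH-KO PM. It stated that its RNA-seq analyses did not pick out either gene. The study also reported more ABCA1 protein in oxLDL-treated macrophages grown from bone marrow. In LDAH-Tg macrophages of that kind LXRα knockdown hindered the higher expression of both genes. Macrophages captured from LDAH-Tg lesions had more *Abca1* RNA as well. In LDAH-KO PM 14 targets passed, 9 lower and 5 higher, from *Abca1* (-0.37) to *Cd5l* (0.55). Their median of -0.06 lay near that of all genes there (-0.08).

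By group means alone, the 5 genes most like *Smpdl3a* of 8370 with at least 5 TPM in every group were *Rab5a*, *Morf4l1*, *Sypl*, *Pla2g4a* and *Bpnt1*. The measure was the distance between log2 levels centred over the 4 groups, which ran from 0.07 for *Rab5a* to 0.09 for *Bpnt1*. *Rab5a*, a GTPase of early endosomes, had 27.3 TPM in LDAH-Tg PM, 41.4 TPM in Tg control PM, 98.7 TPM in LDAH-KO PM and 104 TPM in KO WT PM. Their order of groups was set by this choice and is no result.

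In these whole cultures, fewer cells of a type and less RNA per cell cannot be told apart. Macrophage markers were abundant in each group: the 6 other than *Lyz2*, which is listed at 0 in all groups but LDAH-Tg, summed to 5321 TPM in LDAH-Tg PM, 5449 TPM in Tg control PM, 3631 TPM in LDAH-KO PM and 4029 TPM in KO WT PM. *Adgre1*, which encodes F4/80, had 22.4 TPM in LDAH-Tg PM, 33.1 TPM in Tg control PM, 147 TPM in LDAH-KO PM and 146 TPM in KO WT PM. *Cd68* went the other way between the sets of mice, with 4895 TPM in LDAH-Tg PM, 4959 TPM in Tg control PM, 3023 TPM in LDAH-KO PM and 3321 TPM in KO WT PM. Of the 6 markers other than *Lyz2*, 3 were higher and 3 lower in Tg control PM than in KO WT PM. The 6 fibroblast markers summed to 31.9 TPM in LDAH-Tg PM, against 30.05 TPM in Tg control PM, and to 18.7 TPM in LDAH-KO PM and 38.5 TPM in KO WT PM, where 5 of the 5 that passed were lower by a factor of 1.5, against 1.83% of all genes. The 6 mesothelial markers summed to 4.16 TPM in LDAH-KO PM and 6.59 TPM in KO WT PM. Only *Upk3b* (log2 ratio -0.94) and *Wt1* (-0.82) passed the filter between these groups, and both were lower in LDAH-KO PM. The others were under 1 TPM in both groups, with *Krt8* and *Krt18* higher and *Msln* and *Krt19* lower in LDAH-KO PM. The part of fibroblasts and mesothelial cells in the lower *Smpd4*, *Cers6*, *Sgms1* and *Sgms2* means of LDAH-KO PM was not tested. B cell, T cell, mast cell, eosinophil and dendritic cell markers summed to under 2 TPM each in every group. Of 4 neutrophil markers, *S100a8* alone was abundant, at 63.8 to 107 TPM. *S100a9* had at most 0.74 TPM (in LDAH-Tg PM), *Retnlg* at most 0.03 TPM (in LDAH-KO PM), and *Ly6g* was listed at 0.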

How the data were processed

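RNA of oxLDL-treated PM was sequenced in 16 samples of 4 groups. Per the labels and methods, the authors made stranded mRNA libraries, trimmed the reads with Trimmomatic and aligned them to GRCm38 (mm10) with STAR 2.4.2a. The submitters' processing notes also name HTSeq, DESeq2 and Cuffdiff 2.2.1. The tool behind the TPM values and the annotation release were not given in the sources used here. The authors deposited the mean TPM of each group for 48432 genes, and 1 line with no gene, which holds the column totals, was left out. The depth is unknown, and the tests planned for values per sample could not be made.

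Log2 ratios of these deposited means were computed after adding 0.5 TPM to each, over genes with a mean of at least 1 TPM and no group at 0, so that the LDAH-Tg comparison lost 62 genes to zeros and the LDAH-KO comparison 60. For symbols found on several genes the entry of highest mean was used. The text names every member, *Ldah*, genes of each list past a factor of 1.5 and up to 3 others per comparison with the largest ratios, and the 5 genes most like *Smpdl3a*. *Mical1*, *Setdb1*, *6330562C20Rik*, *Sptlc2*, *Abca1*, *Abcg1* and *Tfeb* are named beside a result where the rule does not take them, after their values were seen. The same holds for *Mcoln1* and *Tfe3* in LDAH-Tg PM and for *Adgre1* and *Cd68*. It also holds for the genes listed at 0 or under 1 TPM. Members and lists were chosen with earlier results of these data known. Coordinates and coding sequences came from GENCODE M21, which holds 99.2% of the table's gene identifiers. The steps were run on simulated group means with planted changes larger than any member ratio between a genotype and its controls. That run had no replicates, so it does not bear on differences of the members' size. Pseudocounts of 0.1 and 1 and none, no filter, a minimum of 5 TPM, genes at 0 kept, median-ratio scaling, quantile normalization and factors of 1.2 and 2 were tried, and protein-coding genes alone were added after the data were seen. Computations used Python 3.11.15 (scipy 1.17.1, pandas 2.3.3, numpy 2.4.6), and plots matplotlib 3.10.9.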

Additional observations from a re-analysis of the deposited data

How the results depend on the processing

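No paired analysis was possible because the deposited columns are group means and carry no replicate number. For the same reason no replicate could be left out. The median log2 ratio of the members lay between -0.11 and -0.08 in the LDAH-Tg comparison and between -0.16 and -0.07 in the LDAH-KO comparison under every alternative run. The number of members past the factor stayed at 0 in both directions except at a factor of 1.2, where 3 were lower in LDAH-Tg PM and 2 in LDAH-KO PM. Of 19 member ratios, 17 kept their sign under every alternative, and the exceptions were *Smpdl3a* and *Smpd1* in LDAH-KO PM, both close to 0 throughout. Quantile normalization moved *Smpdl3b*, *Smpd2* and *Smpd4* in LDAH-KO PM to -0.08, 0.26 and -0.21.

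Counts over all genes depended on the settings. Higher in LDAH-Tg PM were 144 genes, against 234 with no pseudocount, 255 with no filter, 57 at a minimum of 5 TPM, 1281 at a factor of 1.2, 29 at a factor of 2 and 71 among protein-coding genes. Lower were 78, against 133 with no filter, 39 at a minimum of 5 TPM, 966 at a factor of 1.2, 20 at a factor of 2 and 36 among protein-coding genes. Higher in LDAH-KO PM were 44, against 98 with no filter, 11 at a minimum of 5 TPM, 67 with genes at 0 kept, 80 with quantile normalization, 363 at a factor of 1.2, 17 at a factor of 2 and 9 among protein-coding genes. Lower were 207, against 362 with no filter, 64 at a minimum of 5 TPM, 134 with quantile normalization, 1757 at a factor of 1.2 and 46 at a factor of 2. With no filter the ceramidase median in LDAH-Tg PM was -0.32 and that of the sphingosine 1-phosphate genes 0.007. The cause of these shifts beyond the number of genes compared was not tested.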
